A study of Mus musculus with 4 samples.

Results

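The genes described here encode subunits of the serine/threonine protein phosphatases PP1, PP2A and calcineurin in mouse testis. The list holds 10 genes, chosen by gene name after results of the genotype comparison on these arrays were known, so the changes of the listed genes are given as a description and not as a test. Every probe set whose platform annotation names exactly 1 gene, and that gene is on the list, was taken. This gave 8 probe sets for 8 genes, 1 each, among the 12488 probe sets of the array. Ppp1ca and Ppp3r2 were named by no probe set in the annotation used here and were not analysed.

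RNA was extracted from the testis of Tslc1-/- and of Tslc1+/+ males, all of the C57BL/6J strain and 16 weeks old, and hybridised to 4 Affymetrix arrays, 2 of each genotype. Tslc1 is an older name of Cadm1, a membrane protein of the immunoglobulin superfamily through which cells adhere. The labels do not describe how the Tslc1 allele was made or whether each array stands for a separate animal, so the errors given here measure the spread between arrays, which may be technical. On 1 Cadm1 probe set the signal was 443.5 and 444.9 in Tslc1-/- testis, against 3960.0 and 3925.2 in Tslc1+/+ testis. Another Cadm1 probe set read 775.9 and 604.5 in Tslc1-/- testis, against 3449.5 and 4027.9 in Tslc1+/+ testis. The identifiers of both carry suffixes that mark possible cross-hybridisation. The arrays were alike in brightness, with medians from 361.5 to 378.

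PP1, PP2A and calcineurin remove phosphate from serine and threonine and so reverse the work of protein kinases. PP1 is a catalytic subunit held by 1 of many regulatory proteins, PP2A joins a scaffold (A), a regulatory (B) and a catalytic (C) subunit, and calcineurin pairs a catalytic subunit with a calcium-binding regulatory subunit. PP1 and calcineurin have sperm forms: a splice form of Ppp1cc is the main PP1 of mouse spermatozoa, and the pair encoded by Ppp3cc and Ppp3r2 is the calcineurin of the sperm tail.

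Of the subunit genes measured, the PP2A regulatory gene Ppp2r2b fell, to 0.43 times the Tslc1+/+ signal, while the catalytic and scaffold genes above the signal filter lay between -0.19 and 0.23 on the log2 scale. Changes are log2 of the Tslc1-/- over the Tslc1+/+ signal after 50 was added to each signal, so that changes of dim probe sets come out too small. The fit (limma) covered the 7975 probe sets with a mean signal of at least 200, and a probe set is called where the Benjamini-Hochberg adjusted p over all of them is under 0.05. Of the 7 subunit probe sets that passed the filter, 1 was called, as lower in Tslc1-/-, and 6 were not. Over all tested probe sets 1.08% were called, with 0.840% lower and 0.238% higher in Tslc1-/-. Nothing is read from this count, since the list was drawn up with this comparison known. The 7 had a median change of 0.12, against 0.02 over all tested probe sets. The number of calls over all probe sets rested on each array: it was 86 with all of them, 41 and 43 without Tslc1-/- replicate 1 or 2, and 42 and 37 without Tslc1+/+ replicate 1 or 2.

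**Figure D1:**
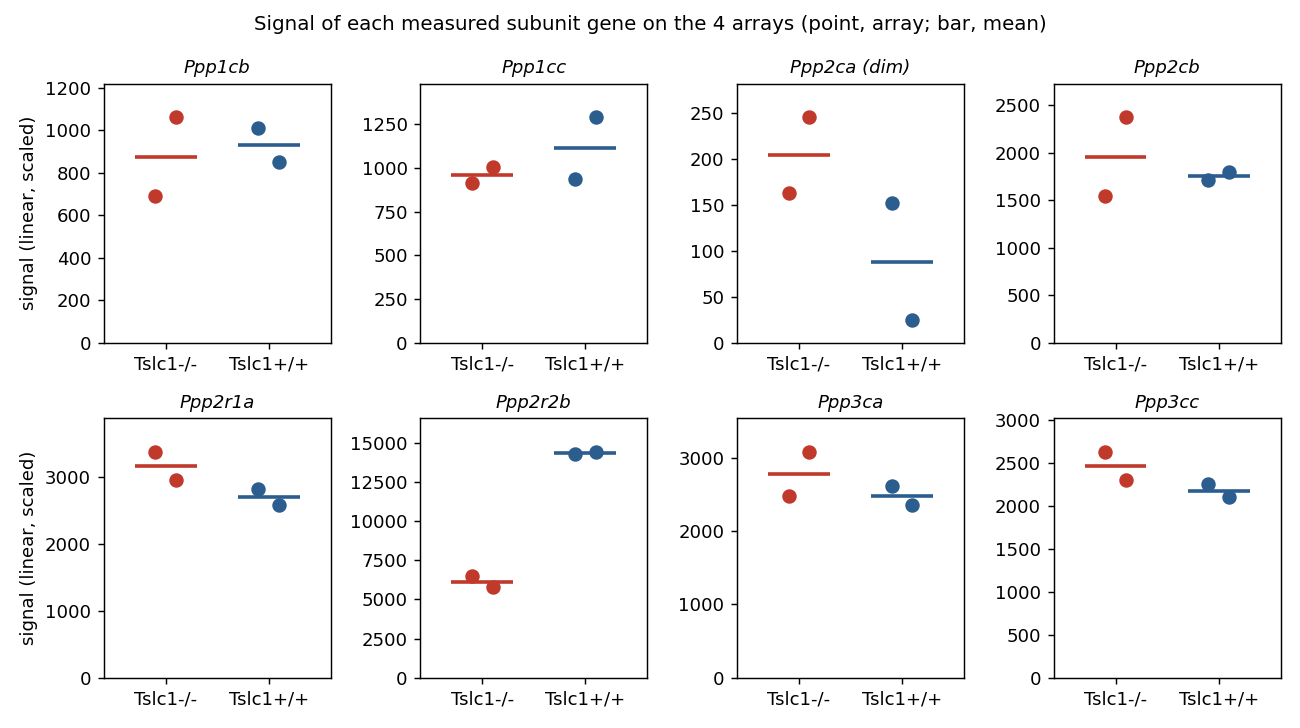
Signal of the 8 measured subunit genes (vertical axes, linear scaled signal from 0, a separate axis for each gene) on the Tslc1-/- arrays, left, and the Tslc1+/+ arrays, right, with a point for each array and a bar for the mean of 2 arrays. For Ppp2r2b both Tslc1-/- points, 6482.6 and 5786.0, lie far below both Tslc1+/+ points. For the other genes the genotypes overlap or lie close, except for the dim Ppp2ca. Its Tslc1-/- points lie above its Tslc1+/+ points, 152.0 and 25.0, which are far apart. Axes are not comparable between genes.

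Ppp2r2b encodes a B regulatory subunit, the beta member of a family that gives PP2A its substrates and place in the cell, and is known for its expression in brain and testis. Its signal was 6482.6 and 5786.0 in Tslc1-/- testis, against 14305.2 and 14411.5 in Tslc1+/+ testis. The genotypes were far apart and the arrays within each close together: replicates differed by 0.16 on the log2 scale in Tslc1-/- and by 0.01 in Tslc1+/+. The means were 6134 ± 493 in Tslc1-/- and 14358 ± 75.2 in Tslc1+/+ testis (SD, n = 2 each). The log2 change was -1.22 (standard error 0.10, 95% interval from -1.45 to -1.0).

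The Ppp2r2b fall was called in the fit over all probe sets. With each of the 4 arrays left out in turn the log2 change ran from -1.30 to -1.14; those fits hold 1 array of a genotype, which is assumed to vary like the other genotype, and their calls are not read as support. Where the spread was not allowed to follow signal intensity, 0 of the 7975 probe sets passed (limma; 638 at an unadjusted p under 0.05), Ppp2r2b among those not called, with the same change of -1.22. The value comes from 1 probe set, so no second one on the array bears on it, and its identifier carries no suffix that marks possible cross-hybridisation.

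Set among probe sets of similar brightness, the change of Ppp2r2b was large. The ranks below are a description only, since the list was drawn up with this comparison known. Between mean signals of 5000 and 20000 there were 597 tested probe sets, with a median change of -0.02 and 5th and 95th percentiles of -0.53 and 0.33. Of these, 2 fell further than Ppp2r2b: Dhrsx at -1.37 and Prkar2a, a regulatory subunit of protein kinase A, at -1.23, both named after their values were seen. Over all tested probe sets Ppp2r2b ranked 77 from the largest decrease, and 11 among the 67 called lower, and scatter was wider among dim probe sets.

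**Figure D2:**
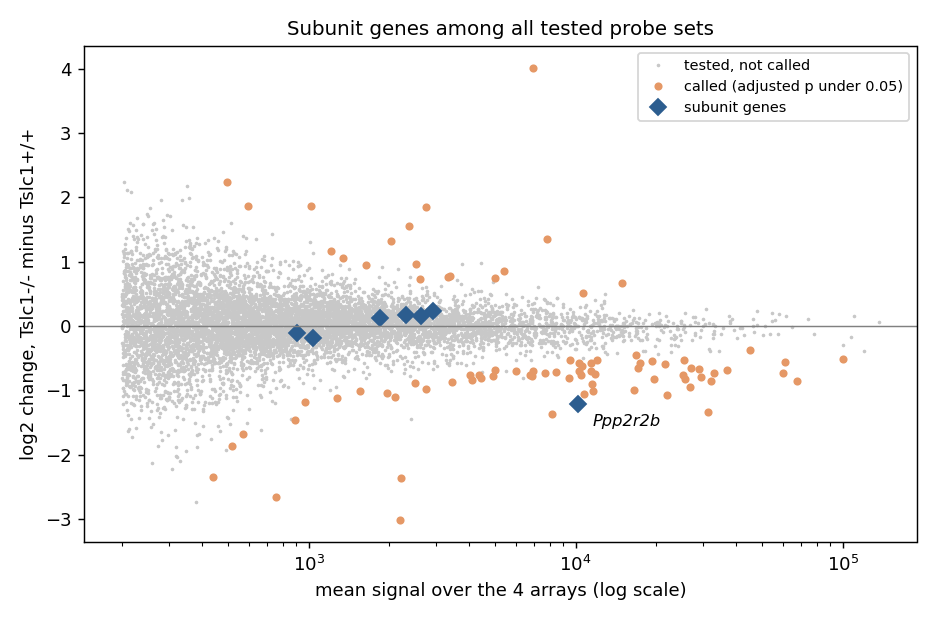
Log2 change, Tslc1-/- minus Tslc1+/+ (vertical axis), against the mean signal over the 4 arrays (horizontal axis, log scale) for the 7975 tested probe sets, with the 86 called ones in orange, the others in grey and the 7 tested subunit genes as blue diamonds. Ppp2r2b, at -1.22, lies below the grey band, and the other 6 diamonds lie within it near 0.

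The scaffold and catalytic subunits with which a B subunit assembles were not called. Ppp2r1a, the A scaffold, read 3364.9 and 2955.6 in Tslc1-/- testis, against 2808.8 and 2572.2 in Tslc1+/+ testis. Both Tslc1-/- arrays were the higher ones, and the log2 change was 0.23 with a standard error of 0.14 and a 95% interval from -0.09 to 0.54. Ppp2cb, the catalytic beta isoform, read 1545.3 and 2368.3 in Tslc1-/- testis, against 1707.7 and 1797.1 in Tslc1+/+ testis. The Tslc1-/- arrays lay on either side of the Tslc1+/+ arrays, with a log2 change of 0.12 and an interval from -0.33 to 0.58. Without Tslc1-/- replicate 2 the Ppp2cb change was -0.18.

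Ppp2ca, the catalytic alpha isoform, was dim. It read 163.2 and 245.5 in Tslc1-/- testis, against 152.0 and 25 in Tslc1+/+ testis, and with a mean of 146.4 it was below the signal filter. The Tslc1+/+ arrays differed from each other by 1.43 on the log2 scale, more than the change between the genotypes of 1.03, which had an interval from -0.45 to 2.51 when no filter was applied. The arrays therefore give no usable direction for this isoform.

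Because signals of different probe sets depend on their sequences, the abundance of A, B and C subunits cannot be ranked from these arrays, but a ratio within an array shows whether 2 genes changed unequally. The log2 ratio of Ppp2r2b to Ppp2r1a was 0.94 and 0.96 in Tslc1-/- testis, against 2.33 and 2.46 in Tslc1+/+ testis, a difference of -1.45. The arrays of the genotypes did not overlap in this ratio, nor in the ratio of Ppp2r2b to any of the other 6 measured members, with differences from -1.03 for Ppp1cc to -2.25 for the dim Ppp2ca. These ratios reuse the Ppp2r2b signals and add no test.

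Neither measured PP1 catalytic gene was called. Ppp1cc, which encodes the gamma isoform that male mice need for fertility, read 911.8 and 1004.3 in Tslc1-/- testis, against 935.3 and 1289.4 in Tslc1+/+ testis. The genotypes overlapped, and the log2 change was -0.19 with a standard error of 0.22 and a 95% interval from -0.69 to 0.31. The files do not say which splice forms of Ppp1cc its probe set reads. Ppp1cb, the beta isoform that with a myosin-targeting subunit acts on myosin, read 691.5 and 1060.2 in Tslc1-/- testis, against 1010.2 and 851.4 in Tslc1+/+ testis. The genotypes overlapped here too, with a log2 change of -0.11 and an interval from -0.67 to 0.46. The sign of both small changes rested on single arrays: without Tslc1+/+ replicate 2 that of Ppp1cc was 0.03, and Ppp1cb was at 0.18 without Tslc1-/- replicate 1 and at 0.01 without Tslc1+/+ replicate 1.

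The calcineurin catalytic genes had small positive changes and were not called. Ppp3cc, the catalytic isoform of the testis and sperm, read 2627.9 and 2298.7 in Tslc1-/- testis, against 2253.9 and 2107.2 in Tslc1+/+ testis. The genotypes did not overlap but their nearest arrays were close, and the log2 change was 0.17 with a standard error of 0.15 and a 95% interval from -0.17 to 0.51. Ppp3ca, the widely expressed alpha isoform, read 2480.2 and 3074.8 in Tslc1-/- testis, against 2613.4 and 2352.3 in Tslc1+/+ testis. The genotypes overlapped, with a log2 change of 0.15 and an interval from -0.20 to 0.50. Of the 7 tested subunit genes, 3 had genotypes that did not overlap, Ppp2r2b lower and Ppp2r1a and Ppp3cc higher, where 40.0% of all tested probe sets did not overlap.

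Apart from Ppp2r2b, the 6 tested members had changes of either sign, 2 below and 4 above 0, and their 95% intervals lay between -0.69 and 0.58. The widest of these intervals spanned 1.13 on the log2 scale and the narrowest 0.63. Each interval rests on 2 arrays a genotype and on a spread that limma draws in part from other probe sets of similar signal. It therefore does not measure the spread of that gene's own arrays alone, and it is not a limit of detection. The intervals are not adjusted for the 7975 probe sets tested, as the calls are.

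**Figure D3:**
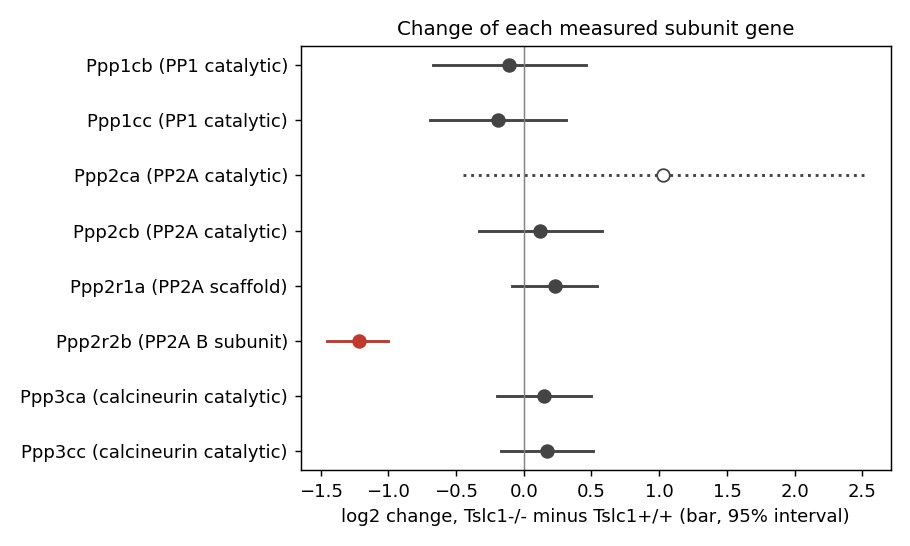
Log2 change, Tslc1-/- minus Tslc1+/+ (horizontal axis), of the 8 measured subunit genes with 95% intervals from limma. The red point is Ppp2r2b, whose interval from -1.45 to -1.0 does not reach 0; the open point and dotted bar are Ppp2ca, below the signal filter; every other interval includes 0.

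The wider phosphatase machinery was read from 4 lists of genes that were not members. Of 110 listed genes, 51 had a probe set of their own and 43 were above the signal filter. None of the 43 was called in either direction (limma), where 1.08% of all tested probe sets were called. A list of this length would hold few or no calls at that share, so nothing is read from their absence. Of the 43, 5 had an unadjusted p under 0.05, against 799 of the 7975 probe sets tested. The median change of the 43 was 0.01, with 20 below 0.

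Among other PP2A subunits and regulators, 17 genes were tested with a median change of 0.04. Strn4, a striatin that serves as a B-type subunit, had the largest change of the tested genes: it read 589.6 and 757.8 in Tslc1-/- testis, against 243.3 and 234.3 in Tslc1+/+ testis, a log2 change of 1.32 ± 0.36 (standard error; limma, adjusted p = 0.161). Ptpa, an activator of PP2A and the brightest probe set of the list, read 9558.7 and 8127.4 in Tslc1-/- testis, against 6632.5 and 7056.5 in Tslc1+/+ testis (log2 change 0.36; limma, adjusted p = 0.239). The genotypes did not overlap for either gene, but neither change passed.

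The close relative of Ppp2r2b, Ppp2r2a, encodes the alpha B subunit and was named after its values were seen. It read 35.7 and 118.7 in Tslc1-/- testis, against 262.2 and 314.2 in Tslc1+/+ testis. Its mean of 182.7 was below the signal filter, and with no filter its log2 change of -1.49 ± 0.60 (standard error) did not pass (limma, adjusted p = 0.540).

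Among PP1 regulatory and inhibitor genes, 8 were tested with a median change of -0.11. The largest change among the tested genes was that of Ppp1r15a, a stress-induced subunit that directs PP1 to a translation initiation factor, at -0.56 (limma, adjusted p = 0.656), and its genotypes overlapped. Wbp11, a nuclear protein that binds PP1 and splicing factors and the brightest of the list, was at 0.19 (limma, adjusted p = 0.465).

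Among other calcineurin genes, 6 were tested with a median change of 0.07. Nfatc2, a transcription factor that calcineurin dephosphorylates, had the largest change of the tested genes, -0.56 (limma, adjusted p = 0.674), whereas a second tested probe set of it was at 0.17. Fkbp1a, the immunophilin through which the drug FK506 inhibits calcineurin, was the brightest and was at 0.09 (limma, adjusted p = 0.805). Ppp3r1, the widely expressed regulatory subunit and so the relative of the unmeasured Ppp3r2, was named after its values were seen: it read 1465.4 and 1307.8 in Tslc1-/- testis, against 1106.9 and 1150.4 in Tslc1+/+ testis, a log2 change of 0.28 (limma, adjusted p = 0.680).

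Of other serine/threonine phosphatases, 12 genes were tested with a median change of -0.09. Ppef2, a phosphatase with calcium-binding EF-hand motifs, had the largest change, -0.63 (limma, adjusted p = 0.813). Ppm1g, a nuclear metal-dependent phosphatase and the brightest of the list, was at -0.21 (limma, adjusted p = 0.439).

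**Figure D4:**
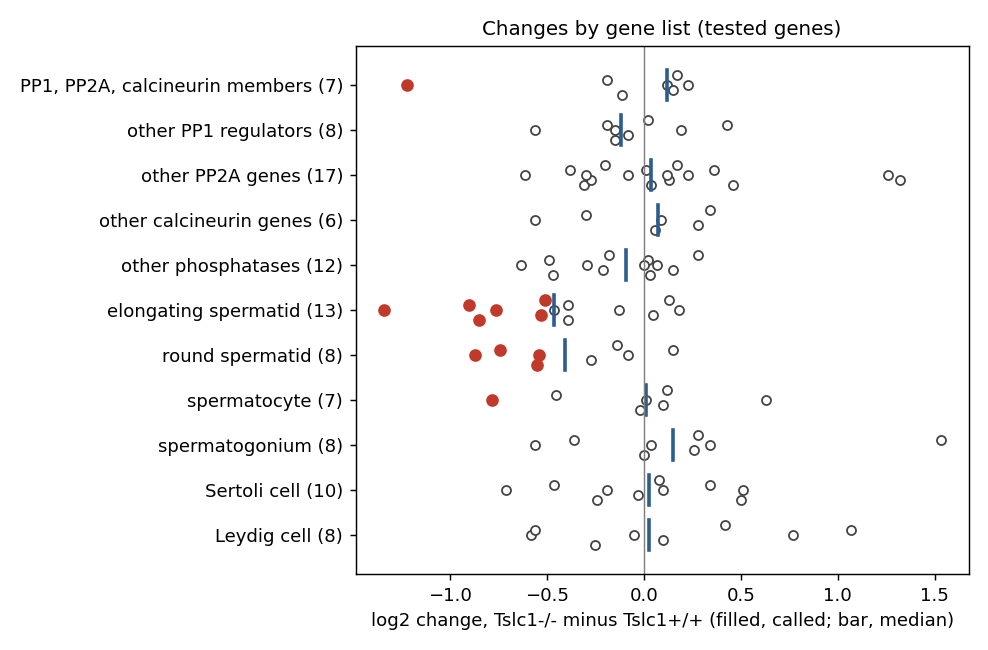
Log2 change, Tslc1-/- minus Tslc1+/+ (horizontal axis), of the tested genes of each list (rows, number of tested genes in brackets), with called genes filled and a bar at each median. Filled points are Ppp2r2b among the members, none among the 4 lists of related phosphatase genes, and 6, 4 and 1 among elongating spermatid, round spermatid and spermatocyte markers.

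Part of the late germ cell markers fell as Ppp2r2b did. The marker lists were chosen with earlier results of these data known, so their counts are a description and not a test. Most spermatid markers were also bright, and the fitted spread is smaller for bright probe sets. The shares over all tested probe sets are therefore not a matched background for them. Of 13 tested elongating spermatid markers 6 fell, none rose and 7 were not called, against 0.840% called lower and 0.238% called higher over all tested probe sets. Their median change was -0.46, and among those not called Prm2, Haspin and Actl7b had positive changes of 0.18, 0.13 and 0.05. The Prm2 probe set was dim, with a mean signal of 276.7 and a 95% interval from -1.14 to 1.5, so it gives no direction for Prm2. The summed signal of the 13 markers was 426861 to 454070 in Tslc1-/- testis, against 616512 to 623758 in Tslc1+/+ testis. Tnp2, the brightest of them, was at -0.39 and not called (limma, adjusted p = 0.0654). Of 8 tested round spermatid markers 4 fell, none rose and 4 were not called, among them Acr at 0.15, with the same shares over all probe sets, a list median of -0.41 and a summed signal of 142224 to 142536 in Tslc1-/- testis, against 201465 to 208777 in Tslc1+/+ testis. Tcp11 was the brightest and fell by 0.55 (limma, adjusted p = 0.00231). The called genes were Tnp1, Prm3, Odf1, Akap4, Oaz3 and Gapdhs in the first list and Tssk2, Theg, Gsg1 and Tcp11 in the second. Each was read from its brightest probe set. A second tested probe set was at -0.27 for Prm3, against -0.76, and at -0.8 for Gapdhs, against -0.51. No marker of either list was at 0, but the lowest value on any array was 1.5. The lack of zeros therefore does not show that a transcript was present.

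Among the tested markers of earlier germ cells and of somatic cells, 1 was called. Of 7 tested spermatocyte markers 1 fell, Pgk2, with a list median of 0.01, and Ldhc, the brightest, was at -0.02 (limma, adjusted p = 0.970). None of the 8 spermatogonial, 10 Sertoli, 8 Leydig, 6 peritubular myoid, 6 macrophage, 3 endothelial or 2 erythrocyte markers tested was called (limma). In the same order, 2, 0, 2, 0, 2, 1 and 2 of them had an unadjusted p under 0.05. Over all tested probe sets 1.08% were called and 799 of 7975 had an unadjusted p under 0.05. Lists this short would hold few or no calls at that share, so nothing is read from their absence. Summed Sertoli signals were 31147 to 31172 in Tslc1-/- testis, against 32064 to 32663 in Tslc1+/+ testis. Summed Leydig signals were 13256 to 14891 in Tslc1-/- testis, against 15525 to 15654 in Tslc1+/+ testis. The 8 Leydig markers did not move together: 4 had changes below 0, and the list median was 0.03. Cyp17a1 had means of 3325 in Tslc1-/- and 4951 in Tslc1+/+ testis, while Nr5a1 was at -0.05 and Hsd3b6 at 1.07. These Leydig genes were named after their values were seen. Summed signals of the 5 endothelial markers on the array were 1188 and 1235 in Tslc1-/- testis, against 2233 and 1819 in Tslc1+/+ testis. The 3 tested had a median change of -1.13 and did not move together. Pecam1, an endothelial adhesion molecule, was at -1.92 (limma, adjusted p = 0.0694), Kdr at -1.13 and Vwf at 0.22. All 3 were named after their values were seen. The part of endothelial cells in the Ppp2r2b fall was not tested. The epididymal marker Adam7 was not called either.

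In a whole testis, fewer cells of a type and less RNA per cell cannot be told apart. The log2 signal of Ppp2r2b minus the mean log2 signal of the 13 elongating spermatid markers was -1.46 and -1.53 in Tslc1-/- testis, against -0.76 and -0.69 in Tslc1+/+ testis. Against the 8 round spermatid markers it was -0.37 and -0.56 in Tslc1-/- testis, against 0.37 and 0.38 in Tslc1+/+ testis. The genotype differences in these log2 ratios were -0.77 and -0.84. These are set against list means, and single markers differed. Oaz3, an elongating spermatid marker, fell further than Ppp2r2b, at -1.34 against -1.22, and the other markers of both lists fell less or rose. The part of spermatid numbers in the Ppp2r2b fall was not tested.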

How the data were processed

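RNA of 4 mouse testis samples, 2 Tslc1-/- and 2 Tslc1+/+ as their titles give it, was measured on Affymetrix Mouse Genome U74A version 2 arrays. The authors deposited 1 linear intensity for each probe set and array. Per the labels' design text, the authors made biotin-labelled cRNA from 3 micrograms of RNA with a poly(T) primer, computed signals with Microarray Suite 5.0 (MAS5 in the submitters' processing notes) and scaled every array to a target of 1000; trimmed means (2% from each end) were 1001 on each array. Global scaling cannot show a change in total RNA. Depth is not defined for arrays; their number limits the precision.

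Gene names came from the platform annotation: 10833 listed 1 gene, 396 several and 1193 none; 66 controls were left out. Entrez identifiers of 10817 matched RefSeq (GRCm38.p6), used for symbols. A gene in a list stands for its brightest probe set. Signals were taken as log2(signal + 50), kept at a mean of at least 200, and fitted in R 4.3.3 by limma 3.58.1 (lmFit and trended eBayes; two-sided p-values were adjusted by Benjamini-Hochberg over the 7975 probe sets). The fit was tested on simulated data. A permutation test of 2 against 2 arrays cannot give a two-sided p under 0.333 and was not used.

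The members and all gene lists were chosen with earlier results of these data known. Named genes are all members and, from each list of related phosphatase genes, called genes, the tested gene with the largest change and the brightest. From the marker lists, called genes and, for spermatids and spermatocytes, the brightest were named. Other genes are said to be named after their values were seen; Cadm1, Prm2, Haspin, Actl7b, Acr and Adam7 were also outside this rule. Alternatives covered pseudocounts of 16 and 100, no filter, a minimum of 500, quantile and median normalization, no trend, no cross-hybridisation suffix, the replicate number as a block, and each array left out. Replicate numbers are shared by the genotypes, but the deviations of same-numbered arrays from their genotype means did not correlate (r = -0.00119 across probe sets), so the numbers were not taken to pair arrays.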

Additional observations from a re-analysis of the deposited data

How the results depend on the processing

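Over the 13 alternatives the Ppp2r2b change lay between -1.30 and -1.14. Without the intensity trend it was -1.22 and not called. It was called under the others, 4 of which leave 1 array in a genotype, assumed to vary like the other genotype. Over all probe sets, 86 calls became 0 without the trend and 239 with the replicate block (154 lower and 85 higher), and 37 to 43 with 1 array left out; the other alternatives gave 58 to 90. The cause was not tested. Of the related phosphatase genes, 0 were called under each alternative that kept all arrays (limma). The main fit called 1.08% of all tested probe sets, so few or no calls would fall in a list of this length. Signs of uncalled members turned only with an array left out: Ppp1cb ran from -0.40 to 0.18 (0.01 without Tslc1+/+ replicate 1), Ppp1cc from -0.41 to 0.03 and Ppp2cb from -0.18 to 0.42. Ppp2ca entered only the fit with no signal filter. With the replicate block, Ppp2r2b was at -1.22 and called, and no other member was called. Signals near background limit Ppp2ca, Ppp2r2a and similar dim probe sets.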

Other observations

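Ppp1r17, a substrate of cGMP-dependent protein kinase that inhibits PP1 and PP2A and is known from cerebellar Purkinje cells, was in no list and was named after its values were seen. It read 98.1 and 130.9 in Tslc1-/- testis, against 479.6 and 482.4 in Tslc1+/+ testis, a log2 change of -1.70 ± 0.54 (standard error) that did not pass (limma, adjusted p = 0.258). A second Ppp1r17 probe set was dim on all arrays, with means of 34.1 in Tslc1-/- and 35.8 in Tslc1+/+, and was below the signal filter.

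Ppp3cb, the beta catalytic isoform of calcineurin, was likewise named after its values were seen. It read 45.4 and 93.2 in Tslc1-/- testis, against 282.2 and 187.5 in Tslc1+/+ testis, with a mean of 152.1 below the signal filter. Its log2 change of -1.26 in a fit of all probe sets did not pass (limma, adjusted p = 0.601).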
